A study of Mus musculus with 4 samples.

Results

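The cell cycle and DNA replication genes described here are 38 genes listed by symbol: helicase and nucleotide-supply genes that act while DNA is copied, the cyclins that start that phase, and the kinases, checkpoint proteins, motors and centromere proteins that act in mitosis. They were measured in dermis from the back skin of E15.5 mouse embryos on 4 Affymetrix whole-genome arrays, 2 labelled mutant and 2 labelled control, 1 embryo each. Mutant embryos were KRT14-Cre Ctnnb1(Ex3)fl/+, in which Cre driven by the keratin 14 promoter of surface epithelium deletes an exon of 1 Ctnnb1 allele and so leaves a stabilised beta-catenin in the epithelium; controls were littermates whose exact genotype the labels do not give. Epidermis and dermis were parted with dispase, and the dermis, which is not the tissue that Cre targets, gave the RNA. The arrays are called mutant 1, mutant 2, control 1 and control 2 after their labels, and wherever a label's values are given as a pair, its array 1 comes before its array 2. Each gene was read from its probe set with the highest mean signal over the 4 arrays, among probe sets annotated to that gene alone. That gave a value for 37 of the 38 genes, out of 18193 genes on the arrays, and all 37 were bright enough to enter the test, among 11413 tested genes. Ccnb1, which encodes cyclin B1, has no probe set named for it in the annotation used here and is not analysed.

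Cells duplicate their DNA in S phase and divide it in mitosis. The MCM helicase is loaded on origins before S phase and fired when cyclin E and its kinase become active, while cyclin A, cyclin B and Cdk1 drive entry into mitosis, and the Aurora and Polo kinases, the spindle checkpoint and mitotic motors carry it through. Many S phase genes are known targets of the E2F factors, and many mitotic genes are known to carry CCAAT boxes, bound by NF-Y, together with a cell cycle homology region (CHR), bound by the MuvB complexes. In skin of this age, proliferating cells are found among dermal fibroblasts, endothelium, blood cells and the epithelium, and the condensing dermal cells under hair placodes are known to leave the cycle. In RNA from a whole tissue, fewer cycling cells and less of a transcript per cycling cell cannot be told apart.

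The promoter windows of 6 members are shown because they hold the known sequence classes of both phases in genes whose values are given below. They are 250 bases before the annotated start, 5′ to 3′ on the gene's strand, from RefSeq on GRCm38.p6, with matches in capitals. For Mcm5 the start used lies 41 bases downstream of the gene's annotated 5′ end, so the last CCAAT box printed for it lies within the annotated gene. For the other printed windows the start is the annotated 5′ end. Capitals mark the CCAAT box (CCAAT), the CHR (TTTGAA or TTCGAA) and the E2F site (TTTCCCGC, TTTCGCGC, TTTGCCGC or TTTGGCGC), each on either strand, and a longer run of capitals is E2F matches that overlap each other.
Plk1, chr7:122159185-122159434, + strand: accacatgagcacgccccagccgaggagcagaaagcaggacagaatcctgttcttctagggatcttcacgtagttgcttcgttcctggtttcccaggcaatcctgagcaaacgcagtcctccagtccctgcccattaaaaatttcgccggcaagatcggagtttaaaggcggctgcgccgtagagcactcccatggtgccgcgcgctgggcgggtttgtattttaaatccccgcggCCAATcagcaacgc
Cdc20, chr4:118437344-118437593, - strand: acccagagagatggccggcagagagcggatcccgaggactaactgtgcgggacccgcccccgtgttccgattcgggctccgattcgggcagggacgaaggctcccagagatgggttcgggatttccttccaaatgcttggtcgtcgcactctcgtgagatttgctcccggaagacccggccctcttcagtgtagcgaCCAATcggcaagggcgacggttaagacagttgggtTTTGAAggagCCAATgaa
Cdk1, chr10:69352913-69353162, - strand: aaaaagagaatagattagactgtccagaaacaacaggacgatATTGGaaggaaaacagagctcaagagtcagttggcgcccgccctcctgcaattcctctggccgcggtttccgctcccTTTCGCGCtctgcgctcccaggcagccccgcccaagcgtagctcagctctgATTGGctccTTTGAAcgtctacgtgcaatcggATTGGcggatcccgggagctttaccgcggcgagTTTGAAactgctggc
Kif11, chr19:37376132-37376381, + strand: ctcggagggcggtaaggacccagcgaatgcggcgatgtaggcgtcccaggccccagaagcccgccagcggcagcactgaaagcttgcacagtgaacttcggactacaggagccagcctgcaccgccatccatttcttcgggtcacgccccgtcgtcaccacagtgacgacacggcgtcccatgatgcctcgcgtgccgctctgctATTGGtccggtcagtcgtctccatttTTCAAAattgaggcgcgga
Mcm5, chr8:75109259-75109508, + strand: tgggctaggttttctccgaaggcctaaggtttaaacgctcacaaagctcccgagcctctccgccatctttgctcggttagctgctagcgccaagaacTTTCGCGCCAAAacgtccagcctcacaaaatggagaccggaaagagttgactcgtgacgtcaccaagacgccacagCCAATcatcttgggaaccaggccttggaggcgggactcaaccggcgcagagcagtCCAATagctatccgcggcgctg
Mcm6, chr1:128359706-128359955, - strand: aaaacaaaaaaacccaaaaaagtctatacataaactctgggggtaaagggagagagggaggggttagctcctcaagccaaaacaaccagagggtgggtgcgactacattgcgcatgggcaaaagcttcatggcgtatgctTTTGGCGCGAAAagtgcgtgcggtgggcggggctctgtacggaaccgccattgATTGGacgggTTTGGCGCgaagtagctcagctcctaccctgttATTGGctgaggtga
On the probe sets used, Plk1 and Mcm5 had among the largest differences of the mitosis and the replication genes. Cdc20 and Kif11 have a CCAAT box and a CHR close to the start, and Cdk1 has all 3 motifs. Mcm6 has E2F matches and was the member with both mutant arrays above both control arrays on the probe set used. The CHR of Plk1 lies outside the printed stretch, at positions 30 to 35, counting the start as 0.

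RefSeq windows reaching 250 bases before and 50 after a start were found for 31 of the 38 genes, 33 windows in all. Aurkb, Ccna2, Ccne2, Gins1, Kif20a, Mcm4 and Tpx2 had none. Prc1 had 2 overlapping windows that hold the same CCAAT box and CHR, so its promoter counts 2 times among the mitosis windows. A CCAAT box lay in 17 of 20 mitosis windows (85%) and in 9 of 10 replication windows (90%), against 37.4% of all 32851 windows of the same length. A CHR lay in 15 of 20 mitosis windows (75%) and 2 of 10 replication windows (20%), against 19.2% of all windows, and the same 15 mitosis windows held both motifs, against 7.52% of all. The E2F site gave the opposite picture, with 4 of 10 replication windows (40%), namely those of Mcm3, Mcm5, Mcm6 and 1 of 2 for Mcm7, and 1 of 20 mitosis windows (5%), that of Cdk1, against 2.26% of all. In all, 2 matches, both in an Mcm7 window, overlapped a match of another kind. These are matches of letters and not shown sites, and a window without a match says only that these letters are not in it.

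**Figure D1:**
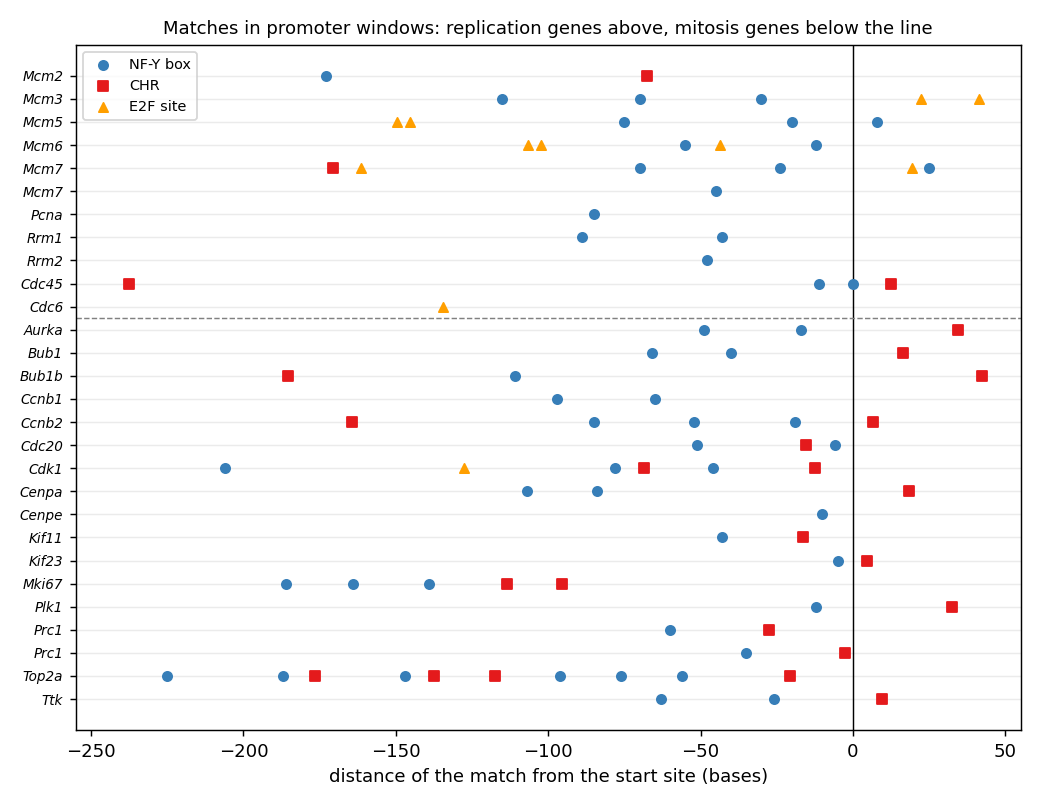
Matches to the NF-Y box (the CCAAT box), the CHR and the E2F site in the RefSeq promoter windows of the genes, by distance in bases from the start site at 0. Each row is 1 window with at least 1 match, replication genes and Cdc6 and Cdc45 above the dashed line and mitosis genes below it; CHR matches lie mostly below the line and E2F matches mostly above it.

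Several facts of the series bear on every value below. The deposited signals, linear and scaled per array, had a trimmed mean of 150.0 on each array and medians of 28.7 and 32.4 on the mutant arrays and 29.8 and 29.8 on the control arrays. The labels do not separate the arrays by their largest differences: of the probe sets in the authors' deposited table, 97 are listed as higher in mutant and 56 as lower, and mutant 2 and control 1 together lay above the other arrays for 96 of the 97 and below them for all 56. Whether labels of arrays were exchanged was not tested, and each mutant minus control value below follows the labels as deposited; an exchange would change what those values compare. The sum of 7 hair shaft markers was 26.9 and 3746 in mutant dermis, against 3364 and 49.98 in control dermis, and the sum of 8 cartilage markers was 269 and 10128, against 239 and 303. Epidermal markers summed to 5176 and 1573 in mutant dermis, against 1399 and 1150 in control dermis, skeletal muscle markers to 15504 and 7681, against 2856 and 8203, and leukocyte markers to 2201 and 3570, against 4646 and 1990. Adipocyte markers summed to 3056 and 12674 in mutant dermis, against 13398 and 1701 in control dermis, and erythroid markers to 2709 and 5517, against 6519 and 3591. All 7 dermal fibroblast markers were bright on every array, with sums of 40890 and 27762 in mutant dermis and 32550 and 36626 in control dermis, while the instrument records name the sample as epidermis on all 4 arrays. Xist gave 11.4 on mutant 1 and 3108 on mutant 2, against 3836 and 3512 on the control arrays, and the Y-linked gene Eif2s3y gave 524 and 1.42 on the mutant arrays, against 0.207 and 1.81 on the control arrays, so mutant 1 alone had the signal of a male embryo. Mutant 1 and control 2 were washed on fluidics modules 2 and 1 and scanned before mutant 2 and control 1, which used modules 4 and 3, so that this grouping and the order of scanning cannot be told apart.

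By label, the cell cycle genes were nearly level between mutant and control dermis. None of the 37 genes passed the test (limma, fitted across 22519 probe sets, adjusted p = 0.9999 for each of the 37), and 0% of all tested probe sets passed. At an unadjusted p under 0.05 there were 0 of 37 genes and 208 of 22519 probe sets (0.924%). The per-probe test that the authors' table names, run on the same values, gave 0 of the 37 and 3 of 22519 probe sets at its own threshold. That threshold asks for a 2-fold difference, and the arrays of each member differed by a factor of at most 1.49. The 0 of 37 was therefore set in advance. Differences are in log2(signal + 16), mutant minus control, and ran from -0.28 for Plk1 to 0.12 for Tyms, with a median of -0.07 and a median standard error of 0.14. The mean was lower in mutant dermis for 32 of 37 genes, against 51.3% of all tested genes, whose median difference was -0.004. The 37 genes were read from the same 4 arrays, so this count is no set of independent observations. The highest of the 4 arrays exceeded the lowest by a factor of 1.05 (Mcm6) to 1.49 (Kif23), with a median of 1.23, against a median of 1.302 for all tested genes.

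The median difference turned on single arrays. It was 0.04 without mutant 2 and -0.18 without mutant 1. It was -0.14 without control 1 and -0.03 without control 2. Both mutant arrays lay below both control arrays for 5 genes, Mcm4, Rrm2, Ccnb2, Plk1 and Cenpa, against 11% of all tested genes. That share of the 37 is near the background. They lay above for 1 gene, Mcm6, against 8.97%.

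The MCM genes encode the 6 subunits of the replicative helicase. Mcm4 gave 1353 and 1291 in mutant dermis, against 1482 and 1494 in control dermis, and the 2 labels did not overlap; the difference was -0.17 ± 0.11 (SE, n = 2 per group). Mcm5 gave 1929 and 1882 in mutant dermis, against 1907 and 2336 in control dermis. Control 2 alone stood above the other arrays for Mcm5, and the difference was -0.15 ± 0.14. Mcm6 gave 1985 and 1949 in mutant dermis, against 1891 and 1897 in control dermis, a narrow spread with both mutant arrays on top and a difference of 0.05 ± 0.11. The other 2 probe sets of Mcm6 went the other way, at -0.16 and -0.14. So did the other 2 of Mcm5, at 0.02 and 0.33. Mcm2 gave 748 and 669 in mutant dermis, against 666 and 792 in control dermis, and Mcm3 gave 1219 and 1080 in mutant dermis, against 1124 and 1333 in control dermis. For Mcm2 and Mcm3 mutant 1 and control 2 were the higher arrays, so the labels overlapped. Mcm7 went the other way, with 2601 and 2732 in mutant dermis, against 2738 and 2488 in control dermis. The differences of Mcm2, Mcm3 and Mcm7 were -0.04 ± 0.14, -0.09 ± 0.14 and 0.03 ± 0.12.

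Pcna encodes the clamp that holds DNA polymerase on its template. It gave 4819 and 3776 in mutant dermis, against 4689 and 4190 in control dermis, so mutant 1 was the highest and mutant 2 the lowest of the 4 arrays, and the difference of -0.06 ± 0.17 lay within that spread. Rrm1 and Rrm2 encode the large and small subunits of ribonucleotide reductase, which makes deoxynucleotides. Rrm1 gave 1412 and 1238 in mutant dermis, against 1413 and 1383 in control dermis, with mutant 2 low and the other arrays within a few percent of each other. Rrm2 gave 1850 and 1859 in mutant dermis, against 1972 and 1940 in control dermis, which did not overlap, for a difference of -0.08 ± 0.11, against -0.08 ± 0.12 for Rrm1. Tyms encodes thymidylate synthase, and its probe set was dim, at 47.3 and 45.8 in mutant dermis, against 37.9 and 45.9 in control dermis. Control 1 was the low array for Tyms, and its difference of 0.12 ± 0.19 was the largest positive one of the 37 genes.

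Cdc6 loads the helicase on origins, and Cdc45 and Gins1 belong to the complex that activates it. Cdc6 gave 335 and 273 in mutant dermis, against 307 and 339 in control dermis, and Cdc45 gave 233 and 204 in mutant dermis, against 222 and 226 in control dermis. Both had mutant 2 as the lowest array, whereas Gins1 had mutant 1 as the lowest, at 316 and 340.3 in mutant dermis, against 339 and 335 in control dermis. The differences were -0.09 ± 0.16 for Cdc6, -0.03 ± 0.14 for Cdc45 and -0.04 ± 0.13 for Gins1. Ccne1 and Ccne2 encode the E cyclins, which activate Cdk2 at the start of S phase. Ccne1 gave 507 and 462 in mutant dermis, against 389 and 519.9 in control dermis, with control 1 the low array and a difference of 0.10 ± 0.18. Ccne2 gave 540.5 and 448 in mutant dermis, against 503 and 518 in control dermis, with mutant 2 the low array and a difference of -0.05 ± 0.14.

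Among the genes of mitotic entry, Plk1, the Polo kinase of centrosomes and kinetochores, had the largest difference of all 37 genes. It gave 419 and 366 in mutant dermis, against 446 and 514 in control dermis, with both mutant arrays below both control arrays and a difference of -0.28 ± 0.15 (limma, unadjusted p = 0.113, adjusted p = 0.9999). Cdk1, the kinase that drives mitosis, gave 1999 and 1486 in mutant dermis, against 1832 and 1866 in control dermis. Mutant 1 was the highest and mutant 2 the lowest array for Cdk1, and the difference was -0.10 ± 0.17. Its partner Ccnb2, cyclin B2, gave 1154 and 1016 in mutant dermis, against 1205 and 1194 in control dermis, with no overlap of the labels and a difference of -0.15 ± 0.12. Ccna2, cyclin A2, gave 1477 and 1265 in mutant dermis, against 1269 and 1507 in control dermis, so that the labels overlapped and the difference was -0.02 ± 0.15. Aurka, the Aurora kinase of spindle poles, differed by -0.06 ± 0.13.

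Aurkb and Birc5 encode the kinase and the survivin subunit of the chromosomal passenger complex, which corrects attachments of chromosomes to the spindle. Aurkb gave 484 and 350.3 in mutant dermis, against 426 and 506 in control dermis, and Birc5 gave 1708 and 1369 in mutant dermis, against 1586 and 1655 in control dermis. Mutant 2 was the lowest array for both, and their differences were -0.17 ± 0.20 and -0.08 ± 0.15. In the spindle checkpoint, Bub1 gave 996 and 738 in mutant dermis, against 745 and 1035 in control dermis, a split in which 1 array of each label was high, and a difference of -0.03 ± 0.23. Ttk, the checkpoint kinase Mps1, split in the same way, with 435 and 336 in mutant dermis, against 347 and 457 in control dermis. Mad2l1, the checkpoint protein that holds Cdc20 inactive, gave 1442 and 1049 in mutant dermis, against 1359 and 1406 in control dermis, and mutant 2 alone was low. Mad2l1, Ttk and Bub1b differed by -0.17 ± 0.18, -0.06 ± 0.20 and -0.05 ± 0.13. Cdc20, which starts anaphase through the APC/C ubiquitin ligase, gave 1741 and 1551 in mutant dermis, against 1670 and 1932 in control dermis and differed by -0.13 ± 0.14.

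Of the motors and midzone proteins, Kif23, a kinesin of the central spindle, had the next largest difference after Plk1, -0.23 ± 0.19. It gave 595 and 456 in mutant dermis, against 558 and 678 in control dermis, with control 2 the highest and mutant 2 the lowest array. The Kif23 difference was -0.05 without mutant 2, -0.10 without control 2 and -0.42 without mutant 1. Kif20a, another central spindle kinesin, gave 504 and 339.5 in mutant dermis, against 439 and 473 in control dermis, and Kif11, the motor that pushes spindle poles apart, gave 428 and 358 in mutant dermis, against 344 and 466 in control dermis. For Kif11 the labels overlapped, control 1 being the lowest array, and the difference was -0.03 ± 0.20, against -0.13 ± 0.21 for Kif20a. Prc1, Nusap1 and Tpx2, which bundle or nucleate spindle microtubules, differed by -0.07 ± 0.18, -0.02 ± 0.20 and -0.13 ± 0.13.

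Cenpa, the histone H3 variant of centromeres, gave 1112 and 1039 in mutant dermis, against 1192 and 1166 in control dermis, with no overlap of the labels and a difference of -0.13 ± 0.11. Cenpe, a kinetochore kinesin, differed by -0.05 ± 0.12. Mki67, the Ki-67 protein used as a proliferation marker, gave 1926 and 1982 in mutant dermis, against 1941 and 2205 in control dermis, where control 2 stood above 3 similar arrays, and differed by -0.08 ± 0.13. Top2a, the topoisomerase that untangles sister chromatids, gave 2433 and 2170 in mutant dermis, against 2348 and 2236 in control dermis and differed by 0.00 ± 0.12. The sign of the Top2a difference has no weight at that size.

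**Figure D2:**
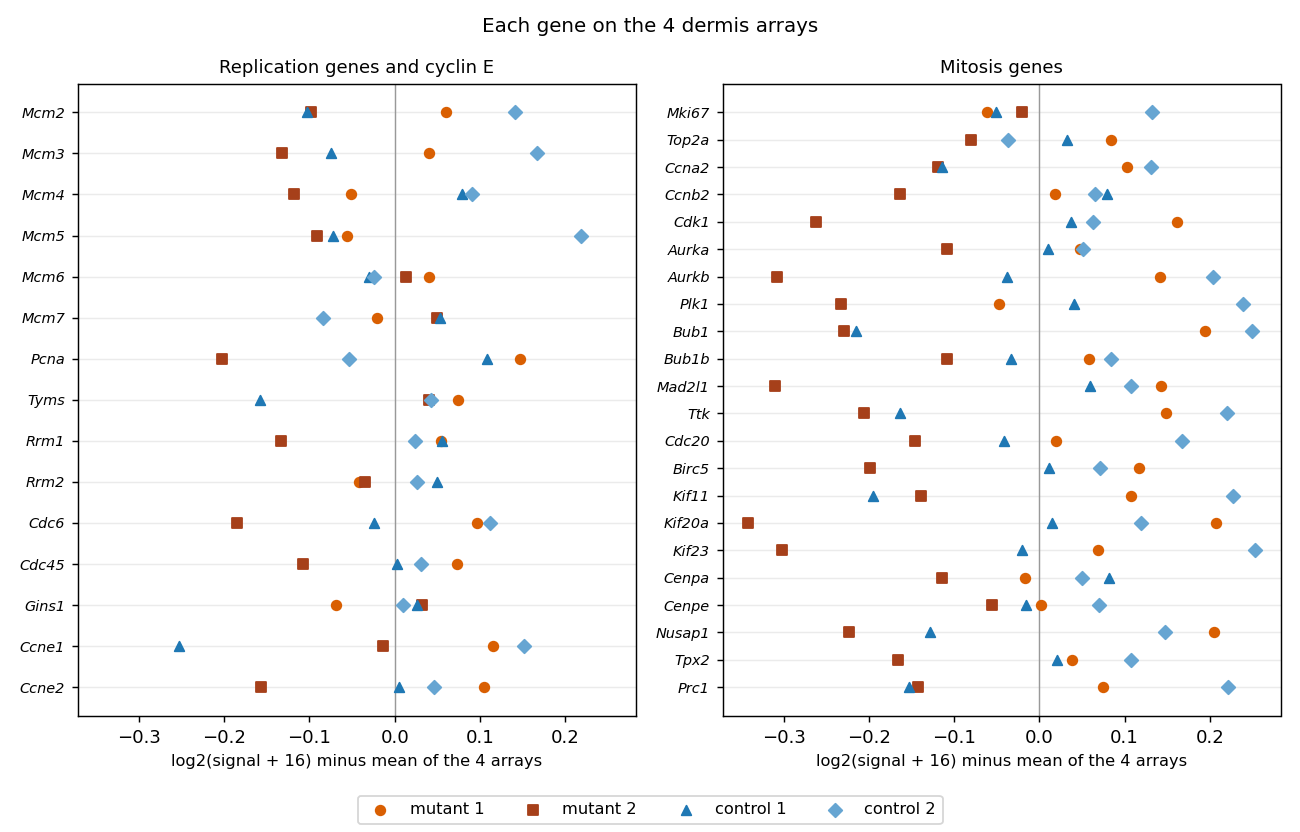
log2(signal + 16) of each of the 37 genes on each array, minus the gene's mean over the 4 arrays (x axis, log2), with replication genes, Cdc6, Cdc45, Gins1 and cyclin E on the left and mitosis genes on the right. Mutant 2 (dark squares) is the lowest array for 19 of 22 mitosis genes, and mutant 1 and control 2 lie to its right for most of them.

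Replication genes (Mcm2 to Mcm7, Pcna, Tyms, Rrm1 and Rrm2, 10 genes) and mitosis genes (22 measured genes) were close to each other by label. The median difference of mutant minus control was -0.07 for replication and -0.08 for mitosis genes, 0.02 apart, against -0.004 for all tested genes. The mean was lower in mutant dermis for 7 of 10 replication genes and 21 of 22 mitosis genes, Top2a being the exception. With Cdc6, Cdc45 and Gins1 counted as replication genes the median of the 13 was -0.06. Without mutant 2 the medians were 0.005 for replication and 0.05 for mitosis genes, and without mutant 1 they were -0.14 and -0.23. Without control 1 they were -0.06 and -0.17, and without control 2 they were -0.02 and -0.04.

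Most of the genes ordered the arrays across the labels. Mutant 1 and control 2 both lay above mutant 2 and control 1 for 25 of the 37 genes, against 23.9% of all tested genes, and both below for 2, Mcm7 and Gins1, against 29.6%. Among mitosis genes the count was 17 of 22 above and 0 of 22 below, the other 5 being Mki67, Top2a, Ccnb2, Plk1 and Cenpa. Among replication genes it was 4 of 10 above (Mcm2, Mcm3, Mcm5 and Tyms) and 1 of 10 below (Mcm7). These counts, and the shares of all tested genes, take the order of the arrays alone, however small the margin. For Tyms the margin was 45.88 on control 2 against 45.81 on mutant 2. For Mcm5 it was 1929 on mutant 1 against 1907 on control 1, and for Cdk1 1866 on control 2 against 1832 on control 1. Mutant 2 was the lowest of the 4 arrays for 19 of 22 mitosis genes and 5 of 10 replication genes, against 24.7% of all tested genes. Over all 37 genes the lowest array was mutant 1 for 3 (25.2% of all tested genes), mutant 2 for 27 (24.7%), control 1 for 6 (21.7%) and control 2 for 1 (28.4%). No test is given for these counts, because the array grouping was known from earlier results of the same data. After quantile normalization mutant 1 and control 2 were on top for 16 of 22 mitosis and 3 of 10 replication genes, against 26.1% of all tested genes, so the replication count was near the background. After centring each array on its median they were on top for 18 of 22 and 5 of 10, against 29.5%. Mutant 2 was lowest for 17 of 22 mitosis and 3 of 10 replication genes after quantile normalization (26.3% of all tested genes), and for 20 of 22 and 7 of 10 after centring (29.8%).

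Relative to each gene's mean over the 4 arrays, the median of mitosis genes was 0.08 on mutant 1 and -0.16 on mutant 2, against -0.02 on control 1 and 0.12 on control 2. Replication genes lay closer to 0 on each array and had mutant 1 in place of control 2 at the top, at 0.04 on mutant 1 and -0.09 on mutant 2, against 0.01 on control 1 and 0.03 on control 2. The median of all tested genes was -0.009 and 0.007 on the mutant arrays and 0.014 and -0.006 on the control arrays. The highest array exceeded the lowest by a median factor of 1.28 for mitosis genes and 1.17 for replication genes. The summed hair shaft, adipocyte, erythroid and leukocyte markers were high on mutant 2 and control 1, the arrays with the lower medians of mitosis genes, and cartilage markers were high on mutant 2 alone, as given above. The summed dermal fibroblast and skeletal muscle markers were highest on mutant 1 and control 2, the arrays with the higher medians of mitosis genes. Epidermal markers followed neither grouping, with the highest sum on mutant 1 and the lowest on control 2. Endothelial markers summed to 2244 and 2642 in mutant dermis, against 2766 and 2480 in control dermis. Dermal condensate markers differed little, with sums of 2605 and 2457 in mutant dermis, against 2628 and 2693 in control dermis. Sums are ruled by the brightest markers, and not every marker followed its sum. The erythroid gene Alas2 was highest on mutant 1, and the leukocyte gene Ptprc was lowest on mutant 2. Col3a1, of the fibroblast list, was higher on control 1 than on control 2, and the muscle gene Tnnc1 was higher on mutant 2 than on control 2. The part of the markers in the values of the cell cycle genes was not tested.

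**Figure D3:**
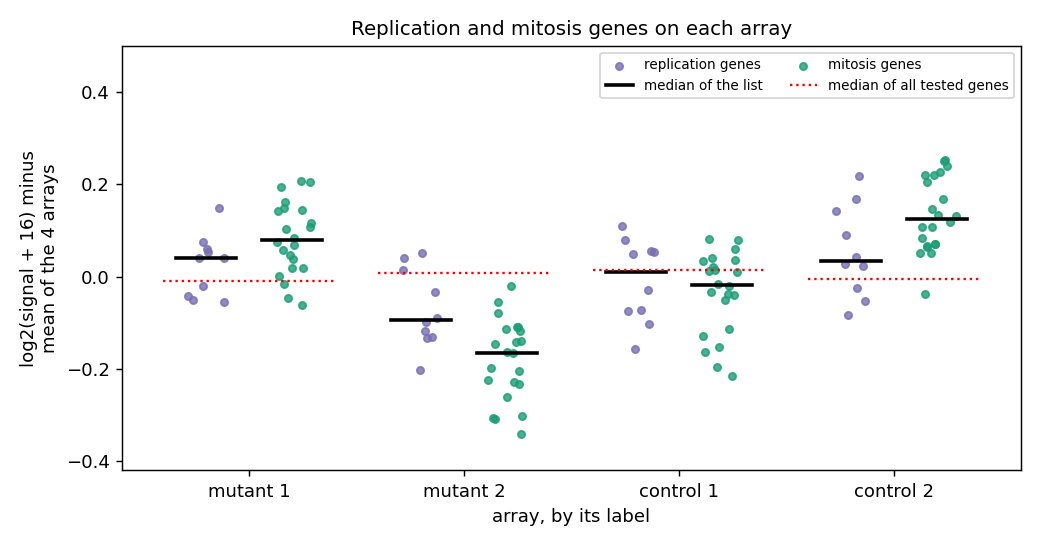
log2(signal + 16) minus the gene's mean over the 4 arrays (y axis) for the 10 replication and the 22 mitosis genes on each array; each point is a gene, black bars are medians of the list and dotted lines medians of all 11413 tested genes. Medians of the mitosis genes run from -0.16 on mutant 2 to 0.12 on control 2, and those of replication genes from -0.09 to 0.04.

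The arrays were next taken in pairs, mutant 2 with control 1 and mutant 1 with control 2, and mutant minus control was read within each pair. In the first pair the median was -0.04 for replication genes and -0.12 for mitosis genes, 0.08 apart, and mutant 2 was below control 1 for 7 of 10 and 19 of 22, against 51.8% of all tested genes. In the second pair the median was -0.02 for replication genes and -0.06 for mitosis genes, 0.04 apart, and mutant 1 was below control 2 for 5 of 10 and 16 of 22, against 50.2%. All tested genes had medians of -0.009 and -0.002. Mitosis genes had the lower median in both pairs, and the difference between the lists was not tested.

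The mutant array was lower within both pairs for 18 of the 37 genes, 13 of them mitosis genes, against 23.9% of all tested genes, and higher within both for 2, Mcm6 and Tyms, against 21.9%. Plk1 had nearly equal differences in both pairs, -0.27 and -0.29. Kif23 had -0.28 and -0.18, and Mcm4 had -0.20 and -0.14. Pcna differed in sign, with -0.31 for mutant 2 minus control 1 and 0.20 for mutant 1 minus control 2, and so did Cdk1, with -0.30 and 0.10. Mcm5 was nearly level in the first pair at -0.02 and lower in mutant 1 in the second at -0.27. With the pairs as a block in limma, 108 of 22519 probe sets passed (0.48%) and 0 of the 37 genes did, with a limma adjusted p of 0.9999 for each of them. At an unadjusted p under 0.05 in that fit there was 1 of the 37 genes, Plk1 (limma, unadjusted p = 0.0451, adjusted p = 0.9999), and 1081 of 22519 probe sets (4.8%). The pairing was picked from these arrays and is not stated by the labels.

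**Figure D4:**
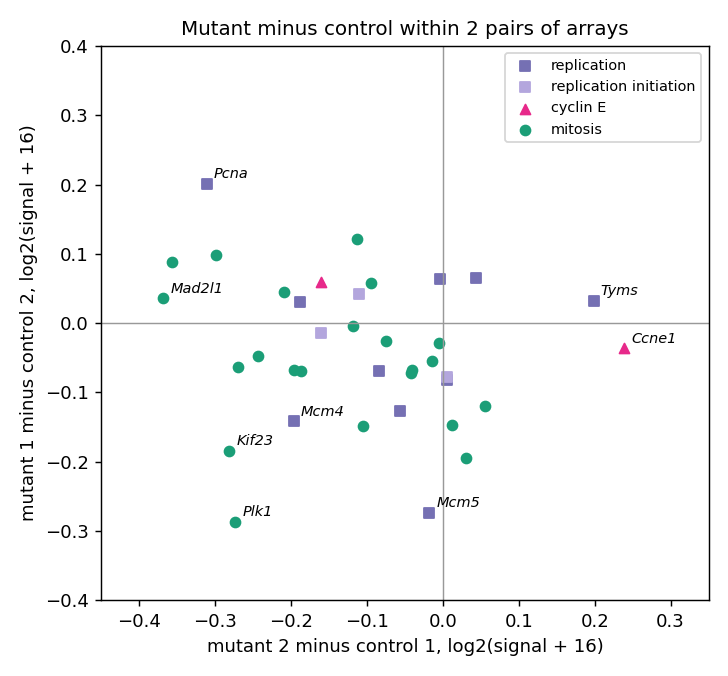
Difference of mutant minus control in log2(signal + 16) within the pair mutant 2 and control 1 (x axis) and the pair mutant 1 and control 2 (y axis), for the 37 genes by role. Plk1 (-0.27 and -0.29) and Kif23 lie low on both axes, Pcna is low on the x axis and high on the y axis, and 18 genes are below 0 on both axes.

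Many genes have more probe sets than the one that stands for them. A further 30 tested probe sets named 22 of the genes, and 24 of the 30 had the same sign of difference as the one used. For mitosis genes, 14 of 15 further probe sets were lower in mutant dermis, with a median of -0.14. Of the 15, 9 had mutant 1 and control 2 both above the other arrays and 1 had them both below. For replication genes, 11 of 14 were lower, with a median of -0.08. Of the 14, 2 had mutant 1 and control 2 both above and 4 had them both below. The shares of all tested genes were 23.9% above and 29.6% below. Averaging all probe sets of a gene turned the sign for Mcm5 (0.07), Mcm6 (-0.08), Cdc45 (0.13) and Top2a (-0.03). Probe sets of a gene share the 4 RNA samples and are not replicates of the embryos.

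Wider lists of the same pathways were chosen with earlier results known. Of 26 tested further replication genes 0 passed in either direction (limma), 21 had the lower mean in mutant dermis (51.3% of all tested genes), the median was -0.06 and the range was -0.23 to 0.10. The largest were Orc6, of the origin recognition complex, at 487 and 446 in mutant dermis, against 568 and 528 in control dermis (-0.23 ± 0.13), and Cdt1, which loads the helicase with Cdc6, at 871 and 859.6 in mutant dermis, against 953 and 1071 in control dermis (-0.22 ± 0.12). Both were among the 4 of the 26 genes with both mutant arrays below both control arrays, against 11% of all tested genes. Of 30 tested further mitosis genes 0 passed in either direction, 25 had the lower mean, the median was -0.10 and the range was -0.34 to 0.19. Ndc80, of the outer kinetochore, gave 190.4 and 95.2 in mutant dermis, against 177 and 176 in control dermis, and mutant 2 alone was low (-0.34 ± 0.32). Nek2, a centrosome kinase, gave 185 and 266 in mutant dermis, against 274 and 284 in control dermis, and mutant 1 was the lowest (-0.31 ± 0.20). Mutant 1 and control 2 lay above mutant 2 and control 1 for 15 of the 26 and 21 of the 30 genes, against 23.9% of all tested genes.

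Regulators of the first gap phase and inhibitors of the cycle were read in the same way. Of 14 tested regulators 0 passed in either direction, 12 had the lower mean in mutant dermis (51.3% of all tested genes) and the median was -0.08. Mycn, a Myc family transcription factor, gave 125 and 103 in mutant dermis, against 144 and 161 in control dermis, with no overlap (-0.37 ± 0.17). It was the 1 of the 14 with both mutant arrays below both control arrays, against 11% of all tested genes. E2f2 gave 114 and 114 in mutant dermis, against 64.8 and 136 in control dermis, where control 1 was the low array (0.23 ± 0.33). Of 15 tested inhibitors 0 passed in either direction, 9 had the lower mean and the median was -0.01. Cdkn1a, which encodes the Cdk inhibitor p21, gave 689 and 541 in mutant dermis, against 337 and 579 in control dermis, with control 1 far below the others (0.45 ± 0.29). The Cdkn1a difference was 0.08 without control 1, 0.83 without control 2 and 0.23 with all its probe sets averaged. Gadd45b, a stress-induced growth arrest gene, gave 190.0 and 251 in mutant dermis, against 300.0 and 240.0 in control dermis (-0.28 ± 0.20), with mutant 1 the lowest array. The Gadd45b difference was -0.02 with all its probe sets averaged, -0.09 without mutant 1 and -0.47 without mutant 2. Cdkn2c, the inhibitor p18, was not named by the rule for genes and was picked after its values were seen. It gave 449 and 229 in mutant dermis, against 238 and 455 in control dermis, a split across the labels in the order most mitosis genes followed. Mutant 1 and control 2 lay above the other arrays for 7 of the 15 inhibitors and below for 3. For the 14 regulators these counts were 7 and 1, against 23.9% above and 29.6% below for all tested genes. None of the 153 probe sets in the authors' deposited table belongs to any of the 38 genes or of these 4 wider lists. The array has 45101 probe sets in all, so few of any short list would be found among 153. That table also asks for a 2-fold difference, while the arrays of each of the 37 genes differed by a factor of at most 1.49 in deposited signal. The absence therefore says little about these genes.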

How the data were processed

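Signal intensity per probe set was deposited by the authors on a linear scale, with GCOS and MAS5 named per the submitters' processing notes; no source used here gives their versions. Per the file headers, the authors' deposited table of fold values (a ratio of mutant to control) used GCRMA, a Present call in 2 of 4 samples, a 2-fold limit and a p under 0.01, so it rests on other values than the deposited signals. Precision is limited by the number of arrays, since arrays carry no read depth. Per the series' design text each group has 2 embryos, so p-values rest on the spread between 2 embryos per label. In limma that spread is pooled over both labels and moderated by a trend across the tested probe sets.

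Of 45101 probe sets, 64 array controls were left out. By GEO's annotation of the array, 34958 probe sets named a single gene, 932 more than 1 gene and 9211 no gene; symbols looked up by gene number in GRCm38.p6 changed for 0 of 34754. Mutant was compared with control in limma 3.58.1 (R 4.3.3), with lmFit and eBayes with an intensity trend on log2(signal + 16), two-sided, Benjamini-Hochberg adjusted over the 22519 probe sets with mean log2 of at least 5.515, at a threshold of 0.05. That scale understates changes of dim probe sets. The script was tested on simulated data with independent noise and larger changes than those of these genes. The simulation had no crossed order of arrays, so it does not bear on small differences here. Lists were described by counts and medians without a test. Same-numbered arrays' deviations from their label means correlated at -0.62 and crossed ones at 0.62. With 2 arrays per label these are mirror values by construction, so they cannot settle whether the numbers pair the arrays. Alternatives were pseudocounts, filters, scaling, blocks, a fit without the trend, the methods' test, averaged probe sets and leaving out each array. Motifs were searched with Python 3.11.15.

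Members, lists and the crossed pairing were chosen with earlier results of these data known. The rule for named genes took the 3 largest differences in each direction, all replication genes, listed representatives of each role and the 2 largest differences of each wider list; other genes were added to account for all members.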

Additional observations from a re-analysis of the deposited data

How the results depend on the processing

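With 2 arrays per label, values rest on single arrays. Without 1 array, the median difference over all cell cycle genes ran from -0.18 to 0.04, that of replication genes from -0.14 to 0.0047, that of mitosis genes from -0.23 to 0.049 and replication minus mitosis from -0.045 to 0.11; the positive list medians were those without mutant 2. The cause was not tested. Across the other pseudocounts, filters, scalings, blocks and averaged probe sets these medians moved by less than the spread between arrays of one label. The count of probe sets past the threshold was 0, and 0 to 1 without 1 array; it was 0 with the replicate block of same numbers, 108 with the crossed replicate block, and 3 in the methods' test per probe set (0 after Benjamini-Hochberg). Of the 35 genes named by rule, 305 of 309 values under alternatives that keep all arrays kept their direction. Filters and blocks leave a gene's difference unchanged by construction, so those of the values could not turn, and blocks could not move the medians. Averaging all probe sets turned Mcm5 (0.067), Mcm6 (-0.083), Cdc45 (0.13) and Top2a (-0.035). Without 1 array, 27 of 140 values turned, over 20 genes, whose differences ran from -0.10 to 0.30 for Ccne1, -0.16 to 0.084 for Mcm2, -0.21 to 0.029 for Mcm3, -0.039 to 0.099 for Mcm7, -0.23 to 0.12 for Pcna, -0.17 to 0.015 for Rrm1, -0.17 to 0.0093 for Mki67, -0.078 to 0.086 for Top2a, -0.18 to 0.080 for Ccne2, -0.14 to 0.11 for Ccna2, -0.31 to 0.11 for Cdk1, -0.39 to 0.058 for Aurkb, -0.27 to 0.20 for Bub1, -0.24 to 0.076 for Birc5, -0.24 to 0.18 for Kif11, -0.23 to 0.053 for Cdc6, -0.12 to 0.056 for Cdc45, -0.086 to 0.014 for Gins1, -0.79 to 0.10 for Ndc80 and -0.23 to 0.69 for E2f2. The other 15 kept their sign without any 1 array, with differences of -0.38 to -0.18 for Plk1, -0.42 to -0.047 for Kif23, -0.20 to -0.14 for Mcm4, 0.041 to 0.067 for Mcm6, 0.015 to 0.22 for Tyms, -0.29 to -0.0007 for Mcm5, -0.088 to -0.065 for Rrm2, -0.23 to -0.022 for Cdc20, -0.18 to -0.083 for Cenpa, -0.29 to -0.17 for Orc6, -0.30 to -0.14 for Cdt1, -0.56 to -0.065 for Nek2, -0.50 to -0.25 for Mycn, 0.076 to 0.83 for Cdkn1a and -0.47 to -0.089 for Gadd45b. A fit without 1 array leaves 1 array in a label, which is assumed to vary like the other label. Hybridization and scan day were shared by all 4 arrays and each fluidics module held 1 array, so no such block was run.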
